A study of Mus musculus with 8 samples.

Results

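The urea cycle and polyamine synthesis share the amino acid ornithine. They are represented here by 10 genes, Otc, Cps1, Ass1, Asl, Arg1 and Arg2 on the urea cycle side and Odc1, Amd1, Srm and Sms on the polyamine side, out of 27597 gene names on the array. They were chosen by symbol, with the tumor and normal values of these samples already known, so their tumor minus normal differences are given as a description. No p-value is given for a member, and counts of members past a threshold only stand beside the same share over all genes. The rule took every probe that the array files name with a member symbol, which gave 17 probes of 41174, with 5 of the genes read by 1 probe each.

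The tumor group holds 4 samples of colon adenoma from adult C57BL/6 mice with the genotype Tcf4Het ApcHet. The normal group holds 4 samples of normal colon from adult C57BL/6 mice with the genotype TCF4WT ApcHet, so all 8 mice carried the heterozygous Apc allele, called ApcMin in the protocol, and tissue and Tcf4 genotype cannot be told apart. The protocol gives littermates and a 2.5 cm distal length of colon as the source of RNA, speaks of tumors for both genotypes and names no separate dissection of adenomas, whereas the labels call the second group normal. Total RNA was labelled with Cy3 and hybridised to 1-colour Agilent arrays, 1 per sample, and values are the log2 values of the authors' deposited table.

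In the urea cycle, carbamoyl phosphate made by Cps1 and ornithine are joined by Otc to citrulline, Ass1 and Asl turn citrulline into arginine, and an arginase splits arginine into urea and ornithine. The complete cycle runs in liver, whereas the small intestine expresses Cps1 and Otc and releases citrulline to the circulation. Ornithine is also the substrate of Odc1, which makes putrescine. Srm and Sms extend putrescine to spermidine and spermine with aminopropyl groups that Amd1 prepares from S-adenosylmethionine, and Odc1 is a long-known target of the growth-promoting factor Myc.

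The promoter windows of Odc1, Sms and Otc are shown. Among the members whose windows were read, these genes had the largest tumor minus normal differences by their brightest probe, in opposite directions. The windows come from RefSeq (GRCm38.p6) and cover 300 bases each, most of them before an annotated start. Odc1 lies at chr12:17544623-17544922 on the plus strand, the upstream start of Sms at chrX:157492238-157492537 and its downstream start at chrX:157491319-157491618 on the minus strand, and Otc at chrX:10252055-10252354 on the plus strand. Capitals mark the E-box CACGTG, the core site of Myc and related factors, and the GC box GGGCGG, a site of Sp1-type factors, on either strand; the GC box was added to the search after the sequences were seen.
Odc1: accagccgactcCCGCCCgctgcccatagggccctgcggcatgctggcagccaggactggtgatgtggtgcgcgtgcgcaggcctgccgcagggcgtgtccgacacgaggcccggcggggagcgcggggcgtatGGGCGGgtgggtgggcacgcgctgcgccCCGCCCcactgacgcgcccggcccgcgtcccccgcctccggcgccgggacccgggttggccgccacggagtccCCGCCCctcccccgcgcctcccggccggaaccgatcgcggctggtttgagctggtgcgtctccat
Sms upstream start: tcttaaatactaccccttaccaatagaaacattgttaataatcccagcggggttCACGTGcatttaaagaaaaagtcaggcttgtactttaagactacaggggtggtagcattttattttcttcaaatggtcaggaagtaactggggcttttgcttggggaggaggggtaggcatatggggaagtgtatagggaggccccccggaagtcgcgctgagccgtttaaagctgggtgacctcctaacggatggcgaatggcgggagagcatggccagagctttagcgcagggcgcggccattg
Sms downstream start: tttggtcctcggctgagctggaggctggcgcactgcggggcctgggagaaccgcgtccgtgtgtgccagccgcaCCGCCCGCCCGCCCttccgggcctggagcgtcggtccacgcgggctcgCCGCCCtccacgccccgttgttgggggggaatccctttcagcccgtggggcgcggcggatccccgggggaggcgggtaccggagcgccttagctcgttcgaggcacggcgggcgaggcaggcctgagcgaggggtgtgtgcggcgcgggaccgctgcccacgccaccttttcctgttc
Otc: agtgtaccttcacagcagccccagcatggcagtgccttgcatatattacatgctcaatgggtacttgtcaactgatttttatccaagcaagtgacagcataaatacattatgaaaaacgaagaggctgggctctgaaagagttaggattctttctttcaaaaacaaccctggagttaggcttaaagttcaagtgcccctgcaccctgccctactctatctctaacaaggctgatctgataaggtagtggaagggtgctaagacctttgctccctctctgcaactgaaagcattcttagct
The Odc1 window held 4 GC boxes and no E-box, at a GC content of 78.0%. The downstream Sms window held 4 GC boxes, of which the first 3 overlap one another, at a GC content of 74.3%, and the upstream window held 1 E-box at position -196 from the start. The Otc window held neither motif, at a GC content of 44.3%. Among all 32851 promoter windows of this length, 7.15% held an E-box and 35.7% a GC box. The table also held Ass1, with 1 E-box at position -36 and 1 GC box, and Amd1, with 1 GC box and no E-box. The TCF/LEF letters CTTTGAT or CTTTGAA, found in 8.65% of all windows, were in none of the 6 member windows, and CCAAT, found in 37.4%, was in the upstream Sms window alone. Windows of Cps1, Asl, Arg1, Arg2 and Srm were not used here.

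Some samples stood apart before any gene was compared. Only 4 of the 8 table columns (tumors 1 and 2, normals 1 and 2) could be matched to a scanner file, and only tumor 1 matched the file of its own label. The columns of normals 1 and 2 matched the files labelled normal 2 and normal 3. That of tumor 2 matched the file labelled normal 4, which is a label of the other group. Samples were therefore taken from the column labels, and which labels are right was not tested. Normal 3 was nearer to the tumors (Pearson 0.946 to 0.967 across 31870 probes, which are not independent replicates) than to its own group (0.857 to 0.936). All 10 pan epithelial and all 10 absorptive colonocyte markers were above the detection limit in every column, as were 9 of 10 small intestine enterocyte markers, so detection alone does not separate colon from small intestine. Probes at or above a detection limit of 5.59 in at least 4 columns were kept, which retained 31870 probes in all and 16 of the 17 member probes, with all 10 genes still represented. Of 21637 genes read by their brightest kept probe, 13.8% passed limma at an adjusted p of 0.05, 6.64% higher and 7.15% lower in tumors, and the groups did not overlap for 23.8% of 21565 genes with a value in every column.

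Of the 16 kept member probes, 6 passed, 4 higher and 2 lower in tumors, against 13.4% of all kept probes, 5.62% higher and 7.83% lower. For 9 of the 16 the groups did not overlap, 6 higher and 3 lower in tumors, against 22.8% of kept probes with 8 values, 10.2% higher and 12.6% lower. By their brightest probe, 5 of the 10 genes passed that threshold, 4 higher in tumors (Arg1, Srm, Sms and Odc1) and 1 lower (Otc), and the groups did not overlap for 8 of 10. Because the members were chosen with this contrast in view, nothing is read from these counts against those over all probes or against the 13.8% and 23.8% over all genes. The median difference was 0.52 on the log2 scale over the 10 genes and 0.15 over all genes. The number of members called was 0 without tumor 3 or without normal 4, and 1 without tumor 2, normal 1 or normal 2. It was 3 without tumor 1 or tumor 4, and 7 without normal 3. The differences of all 10 genes kept their signs in each of these fits. For the 8 genes without overlap, leaving out a sample could not turn the sign. Over the 8 fits, Sms was called in 6, Otc and Srm in 3 each, and Arg1 and Odc1 in 1 each.

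**Figure D1:**
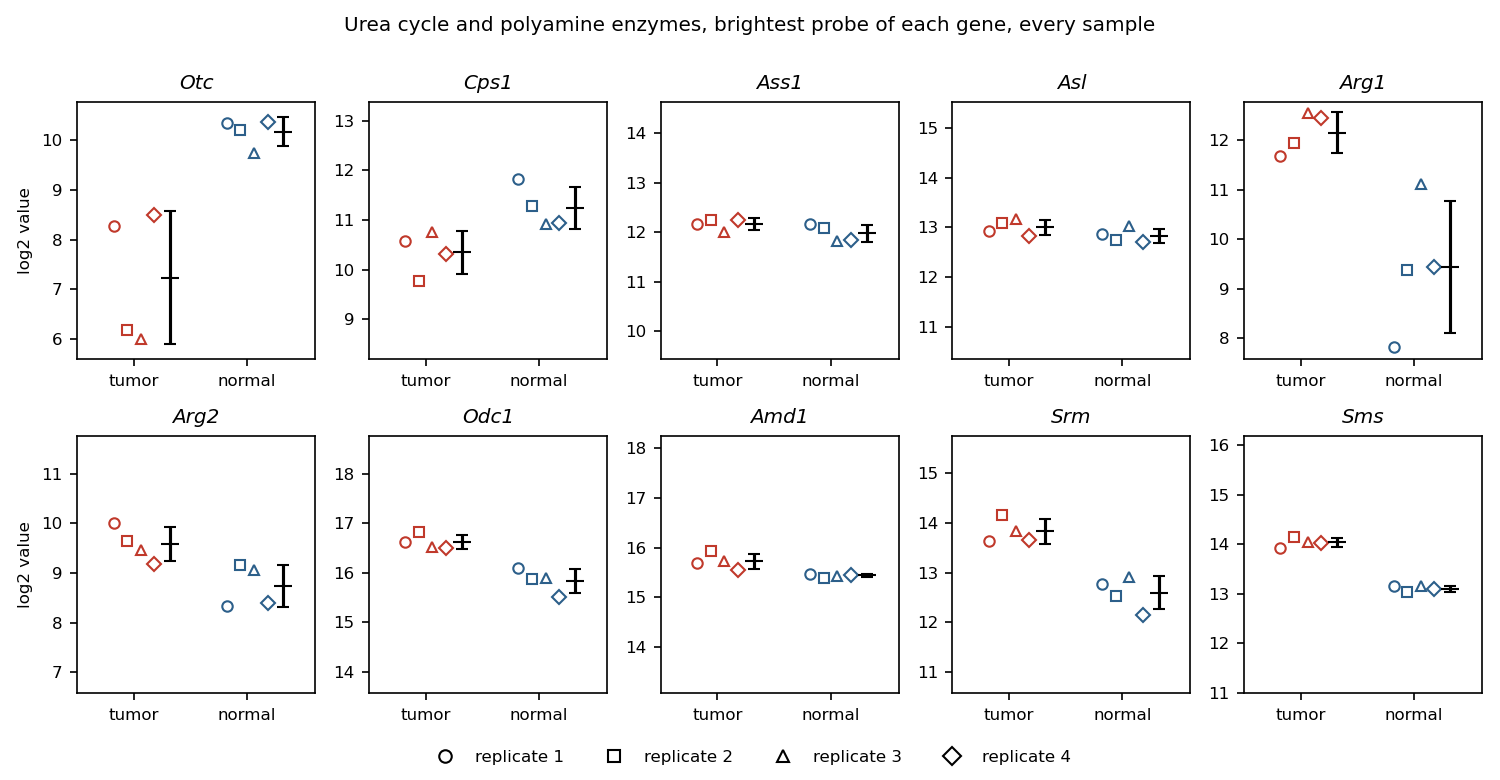
Log2 values (y axis) of the 10 genes by their brightest probe in the 4 tumors (red, left) and 4 normals (blue, right), with marker shapes for the replicate numbers and black bars for mean ± SD. Every panel spans the same number of log2 units. Otc and Cps1 lie lower in all tumors, Arg1, Arg2, Odc1, Amd1, Srm and Sms lie higher, and Ass1 and Asl overlap.

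Otc, which encodes ornithine transcarbamylase and is X-linked, was the member with the largest difference. Its brightest probe (chrX:9477100-9477159, mm8) read 8.28, 6.17, 5.99 and 8.49 in tumors 1 to 4, against 10.36, 10.21, 9.75 and 10.38 in normals 1 to 4. The tumors fell into a lower pair, 2 and 3, close to the detection limit, and a higher pair, 1 and 4, while the normals lay close together. The means were 7.23 ± 1.34 in tumors and 10.18 ± 0.30 in normals (SD, n = 4 each), a difference of -2.94 ± 0.61 (SE), or 7.69-fold. A second probe, whose coordinates (chrX:9433676-9457323, mm8) span 23648 bases and so cross at least 1 intron, read 7.0, 5.79, 5.60 and 6.64 in tumors and 8.78, 9.19, 7.49 and 8.81 in normals. It gave -2.31 ± 0.45 (SE), again without overlap, and again with tumors 2 and 3 lowest and normal 3 the lowest normal. Without normal 3 the probes gave -3.09 and -2.67. The dimmest probe (chrX:9473077-9473136, mm8) was below the detection limit in all 8 columns, at 3.44 to 5.2 in tumors and 3.16 to 4.42 in normals, and was left out of the fit.

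Markers of absorptive colonocytes were lower in the same tumors. Of 10 such markers, 8 fell and 0 rose, with a list mean of 14.73, 13.30, 13.39 and 14.52 in tumors 1 to 4 and of 15.90 to 16.29 in normals. The tumors with the lowest Otc, 2 and 3, thus also had the lowest colonocyte means. They had the lowest pan epithelial means too, which were 17.34, 17.21, 17.30 and 17.46 in tumors 1 to 4. Of 10 pan epithelial markers 2 fell and 0 rose, with list means of 17.21 to 17.46 in tumors and 17.53 to 17.90 in normals. Of 10 small intestine enterocyte markers 1 fell and 0 rose, with overlapping list means of 8.46 to 10.34 in tumors and 9.14 to 11.37 in normals. The small intestine means in tumors 1 to 4 were 10.34, 8.46, 9.23 and 9.07, so tumor 4 lay below tumor 3 there. The part of these cell type markers in the Otc difference was not tested, and in bulk tissue fewer cells of a type and less RNA per cell cannot be told apart. The genes whose profile over the 8 columns was most like that of Otc, by root mean square distance after centring each profile on its median, were Slc26a3 (0.40 log2 units), Hsd3b3 (0.44) and Btnl1 (0.47). Slc26a3, the chloride and bicarbonate exchanger of the colonocyte surface, is also on the colonocyte list.

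Cps1, the mitochondrial synthetase that supplies carbamoyl phosphate to Otc, was lower by a smaller amount. It read 10.57, 9.76, 10.75 and 10.31 in tumors and 11.82, 11.29, 10.91 and 10.93 in normals (chr1:67164100-67164159, mm8). The groups did not overlap, although tumor 3 at 10.75 and normal 3 at 10.91 were neighbours. The difference was -0.89 ± 0.29 (SE), 1.85-fold, and -1.0 without normal 3. The genes nearest in profile were Fut4 (0.18), Pts (0.19) and Pqlc3 (0.19).

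Ass1 and Asl, the enzymes that convert citrulline into arginine through argininosuccinate, had overlapping groups. Ass1 read 12.17, 12.25, 12.00 and 12.26 in tumors and 12.16, 12.09, 11.82 and 11.84 in normals by its brightest probe (chr2:31340768-31342407, mm8), a difference of 0.19 ± 0.14 (SE). Its second probe (chr2:31342388-31342446, mm8) gave 0.18 ± 0.16 and placed normal 3 lowest, as the first probe did. Asl read 12.92, 13.08, 13.18 and 12.83 in tumors and 12.86, 12.75, 13.03 and 12.70 in normals (chr5:130296797-130297382, mm8), a difference of 0.17 ± 0.14 (SE). For both enzymes the difference was about the size of the SD within a group, which lay between 0.12 and 0.17 for these brightest probes.

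The arginases, which return arginine to ornithine, were both higher in tumors, with a much larger difference for Arg1 than for Arg2. Arg1, the cytosolic enzyme of liver that macrophages and other myeloid cells can also make, read 11.68, 11.94, 12.54 and 12.44 in tumors and 7.82, 9.38, 11.11 and 9.45 in normals (chr10:24605804-24605863, mm8). The tumors were tightly grouped and the normals spread widely, with normal 3 closest to the tumors and normal 1 lowest. The means were 12.15 ± 0.41 in tumors and 9.44 ± 1.34 in normals (SD, n = 4 each), a difference of 2.71 ± 0.63 (SE), 6.54-fold. This difference was 3.27 without normal 3 and 2.17 without normal 1. The value of 7.82 in normal 1 lies close to background, since the 95th percentile of that column's undetected probes was 7.70. Among the 4 scanner files that match a column, Arg1 was well above background in 3. Arg2, the mitochondrial arginase, read 10.01, 9.64, 9.46 and 9.19 in tumors and 8.33, 9.16, 9.06 and 8.40 in normals (chr12:80070825-80070884, mm8). The groups did not overlap, but tumor 4 at 9.19 lay next to normal 2 at 9.16, and the difference was 0.84 ± 0.27 (SE), 1.79-fold, and 0.95 without normal 3.

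Some markers of macrophages, neutrophils and T cells rose in tumors too. Of 10 macrophage markers 6 rose and 0 fell, with list means of 11.98 to 12.19 in tumors and 10.17 to 11.39 in normals. Of 8 tested neutrophil markers 6 rose and 0 fell, with list means of 10.83 to 12.98 in tumors and 6.94 to 10.06 in normals. Normal 3, the normal with the highest Arg1, had the lowest macrophage mean of the 8 columns (10.17) and the highest neutrophil mean of the normals (10.06). All 8 tested neutrophil markers were above the detection limit in the 4 tumors. In normals S100a8, S100a9, Retnlg and Ltf were above it in 4, Csf3r in 3, Camp in 2 and Cxcr2 and Mmp8 in 1. Of 7 T cell markers 3 rose and 0 fell, with list means of 9.63 to 10.13 in tumors and 8.26 to 9.34 in normals, where normal 3 was again the highest normal. Of 6 B and plasma cell markers 0 rose and 0 fell. Hepatocyte markers, given because Arg1 is a liver enzyme, had list means of 8.88 to 9.25 in tumors and 8.49 to 8.93 in normals, with 1 of 8, Alb, higher. The part of these markers in the Arg1 difference was not tested. The profiles nearest to that of Arg1 were Eya2 (0.37), Morc1 (0.45) and Aldh1a3 (0.48), and those nearest to Arg2 were Cplx2 (0.16), Rcc2 (0.20) and Gemin5 (0.21).

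On the polyamine side, the brightest probe of every enzyme was higher in all 4 tumors than in any normal. Odc1, the ornithine decarboxylase that opens the pathway, read 16.63, 16.82, 16.53 and 16.50 in tumors and 16.10, 15.87, 15.89 and 15.51 in normals (chr12:17576429-17576487, mm8). Tumor 2 was highest and normal 4 lowest, and the difference was 0.77 ± 0.17 (SE), 1.71-fold. The second Odc1 probe (chr12:17573473-17573532, mm8) read 12.91, 13.05, 13.04 and 12.86 in tumors and 13.18, 12.62, 12.56 and 12.46 in normals. There normal 1 was the highest of all columns, the groups overlapped and the difference was 0.26 ± 0.18 (SE).

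Srm, the spermidine synthase, had the largest difference of the polyamine enzymes. It read 13.64, 14.17, 13.84 and 13.65 in tumors and 12.77, 12.53, 12.90 and 12.15 in normals (chr4:147438124-147438183, mm8). The means were 13.83 ± 0.25 in tumors and 12.59 ± 0.33 in normals (SD, n = 4 each), a difference of 1.24 ± 0.21 (SE), 2.36-fold. Tumor 2 was again highest and normal 4 again lowest. Without normal 3 the differences of Odc1, Srm and Sms were 0.79, 1.34 and 0.95.

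Sms, the spermine synthase, is X-linked like Otc and had the smallest standard error of the 10 genes. Its brightest probe (chrX:152789879-152789938, mm8) read 13.93, 14.15, 14.05 and 14.02 in tumors and 13.15, 13.03, 13.15 and 13.09 in normals. The SD was 0.09 in tumors and 0.06 in normals (n = 4 each) around a difference of 0.93 ± 0.12 (SE), 1.91-fold. The other Sms probes did not separate the groups. One (chrX:152788285-152788344, mm8) read 9.49 to 10.35 in tumors and 9.65 to 9.78 in normals, a difference of 0.25 ± 0.19 (SE), and the other (chrX:152803145-152803204, mm8) gave 0.66 ± 0.74 (SE) at levels near the detection limit, above it in 3 of 4 tumors and 3 of 4 normals.

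Amd1, the adenosylmethionine decarboxylase, had the smallest difference of the polyamine enzymes. Its brightest probe (chr10:39977032-39977091, mm8) read 15.69, 15.92, 15.72 and 15.55 in tumors and 15.47, 15.39, 15.43 and 15.45 in normals, a difference of 0.28 ± 0.13 (SE), 1.22-fold. The groups did not overlap, with tumor 4 at 15.55 next to normal 1 at 15.47. A second probe (chr10:39977898-39977957, mm8) gave 0.07 ± 0.16 (SE) with overlapping groups. A probe that the files name Amd2, a close copy of Amd1 whose transcripts may not be told apart on the array, gave 0.04 ± 0.15 (SE).

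**Figure D2:**
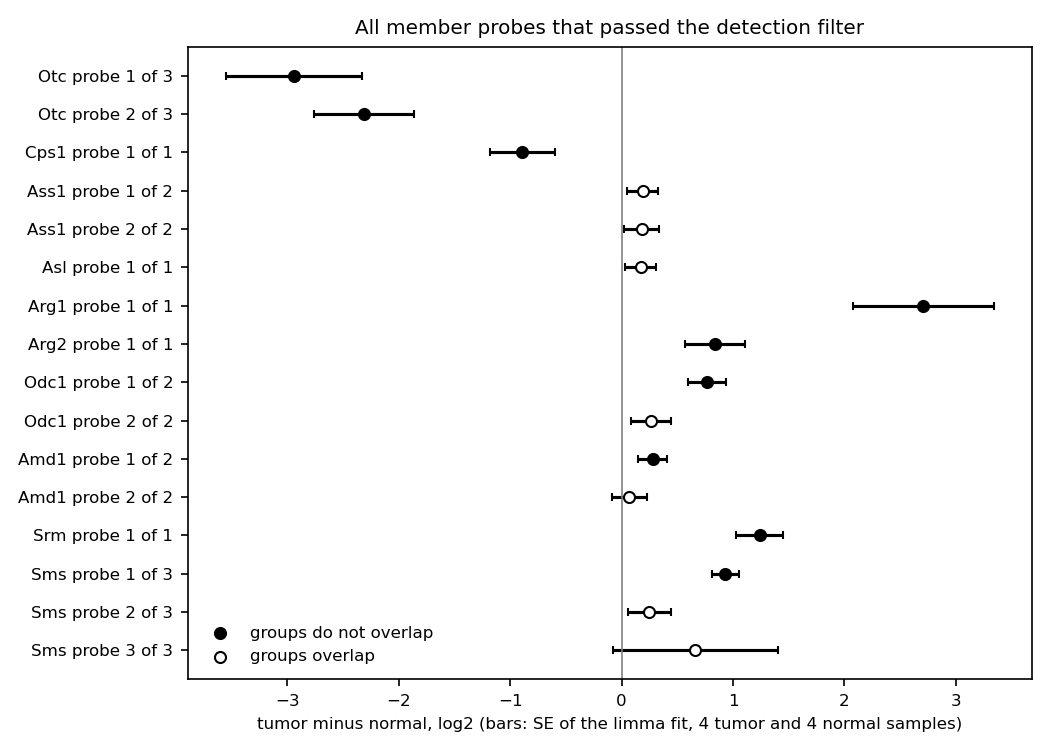
Tumor minus normal difference on the log2 scale (x axis) for the 16 member probes that passed the detection filter, numbered from the brightest probe of each gene, with bars for the SE of the limma fit over 4 tumors and 4 normals. Filled points have groups that do not overlap. The 2 Otc probes and the 2 Ass1 probes gave similar differences, whereas in Odc1, Amd1 and Sms the brightest probe alone had groups without overlap.

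Differences within slides are given as far as slides are known. For the 8 genes whose groups did not overlap, their direction was fixed in advance, so only their sizes are informative. Tumor 1 and normal 1 shared slide 1, and tumor 2 and normal 2 shared slide 2. The file that matches tumor 2 is labelled normal, so by file labels slide 2 compares a normal with a normal. The tumor minus normal values on slides 1 and 2 were -2.08 and -4.04 for Otc, -1.25 and -1.53 for Cps1, 3.86 and 2.55 for Arg1 and 1.68 and 0.48 for Arg2. For the polyamine enzymes they were 0.52 and 0.95 for Odc1, 0.22 and 0.53 for Amd1, 0.88 and 1.65 for Srm and 0.78 and 1.12 for Sms. The second Odc1, Amd1 and Sms probes changed sign between slides, at -0.27, -0.19 and -0.16 on slide 1 and 0.43, 0.40 and 0.32 on slide 2. The nearest profiles in all 8 columns were Cnpy4 (0.08), Tceal9 (0.09) and Gga2 (0.11) for Odc1, Fads1 (0.11), Pxdc1 (0.12) and Mras (0.12) for Srm, and Poglut2 (0.10), Eva1a (0.11) and Plod3 (0.11) for Sms.

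Neighbouring genes of the pathway, which the rule did not use, were read in 4 lists of 48 genes in all. Of these, 7 rose and 2 fell in tumors and 39 did not pass, with a median difference of 0.24. The background over all genes was 6.64% higher and 7.15% lower.

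Genes next to the urea cycle went both ways, with 2 of 17 up and 2 down (median difference 0.14). Oat, which turns ornithine toward proline and glutamate, read 14.55, 14.25, 14.31 and 14.70 in tumors and 15.29, 15.53, 15.02 and 15.57 in normals. It fell by 0.91 ± 0.18 (SE; limma adjusted p = 0.0237) on the log2 scale. Slc25a13, the mitochondrial carrier that exports the aspartate used by Ass1, read 12.04, 11.67, 11.94 and 12.12 in tumors and 12.56, 12.78, 12.41 and 12.75 in normals. It fell by 0.68 ± 0.16 (SE; limma adjusted p = 0.0335, and 0.0636 with the replicate pairs as a block). Nags, which makes the activator of Cps1, and Slc25a15, the ornithine carrier of the mitochondrion, were at -0.99 ± 0.76 and -0.72 ± 0.33 (SE) without passing (limma adjusted p = 0.338 and 0.171), and were named after their values were seen.

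Pycr1, a reductase that completes proline synthesis, read 11.56, 11.78, 11.80 and 11.02 in tumors and 9.58, 9.12, 10.40 and 8.67 in normals. Normal 3 was its highest normal, and the difference was 2.10 ± 0.38 (SE; 4.28-fold, limma adjusted p = 0.0204). Prodh, which degrades proline, was at 1.13 ± 0.31 (SE) and missed the threshold (limma adjusted p = 0.052). Ddah2, of the dimethylarginine dimethylaminohydrolase family, read 15.60, 15.73, 15.34 and 15.12 in tumors and 12.14, 12.80, 14.19 and 12.74 in normals. It rose by 2.48 ± 0.42 (SE; 5.58-fold, limma adjusted p = 0.0182), the largest difference among the neighbouring genes that passed. The nitric oxide synthase gene Nos1 was at -1.23 ± 0.65 (SE) with overlapping groups (limma adjusted p = 0.204), while another Nos1 probe gave 0.74 and was not called.

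Among genes of polyamine regulation, breakdown, export and use, 2 of 15 rose and 0 fell (median difference 0.26). Smox, the spermine oxidase, read 14.24, 14.62, 14.28 and 14.27 in tumors and 12.12, 11.84, 13.32 and 11.76 in normals. The tumors lay within a narrow band and normal 3 was the highest normal, with a difference of 2.09 ± 0.35 (SE; 4.26-fold, limma adjusted p = 0.0178), while another Smox probe gave 0.26 and was not called. Atp13a2, a lysosomal polyamine exporter, rose by 0.68 ± 0.14 (SE; limma adjusted p = 0.0235), with 13.64, 13.78, 13.78 and 13.54 in tumors and 12.80, 13.04, 13.12 and 13.06 in normals. Eif5a2 and Azin2 were at 0.72 ± 0.54 and -0.58 ± 0.31 (SE) and did not pass (limma adjusted p = 0.333 and 0.208). The first encodes a form of the factor that carries hypusine, a residue made from spermidine, and the second an inhibitor of antizyme.

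In methionine supply and salvage, 1 of 8 rose and 0 fell by their brightest probes (median difference 0.34). Mat2b was at -0.37 ± 0.12 (SE) by its brightest probe, without passing (limma adjusted p = 0.0817). Another Mat2b probe gave -1.09 and was called. Mtap, which recycles the methylthioadenosine left over when Srm and Sms have acted, read 11.83, 12.08, 11.56 and 10.70 in tumors and 9.30, 10.03, 10.35 and 9.14 in normals. It rose by 1.84 ± 0.38 (SE; 3.57-fold, limma adjusted p = 0.0257). Mat1a was at 1.45 ± 0.64 and Mri1 at 0.58 ± 0.22 (SE) without passing (limma adjusted p = 0.162 and 0.116), and Mat1a was above the detection limit in 4 tumors and 1 normal. Other Mri1 probes gave 0.85 and -0.44 and were not called.

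Of 8 cationic amino acid transport genes, 2 rose and 0 fell (median difference 0.38). Slc7a6, a light chain that exchanges arginine, read 9.75, 10.53, 10.14 and 10.03 in tumors and 9.04, 9.18, 8.73 and 9.05 in normals. It rose by 1.12 ± 0.20 (SE; limma adjusted p = 0.02), and a second probe gave 1.06 and was called too. Its heavy chain partner Slc3a2 rose by 0.64 ± 0.15 (SE; limma adjusted p = 0.0331, and 0.0654 with the block), with 14.34, 14.44, 14.22 and 14.13 in tumors and 13.49, 13.56, 13.91 and 13.59 in normals, while its other probe was at -0.09. Slc3a1 and Slc7a1 were at -1.77 ± 0.74 and 1.28 ± 0.68 (SE) with overlapping groups (limma adjusted p = 0.145 and 0.207). The count of neighbouring genes called was 0 without tumor 2, tumor 3, normal 2 or normal 4, 1 without normal 1, 2 without tumor 1, 7 without tumor 4 and 27 without normal 3.

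**Figure D3:**
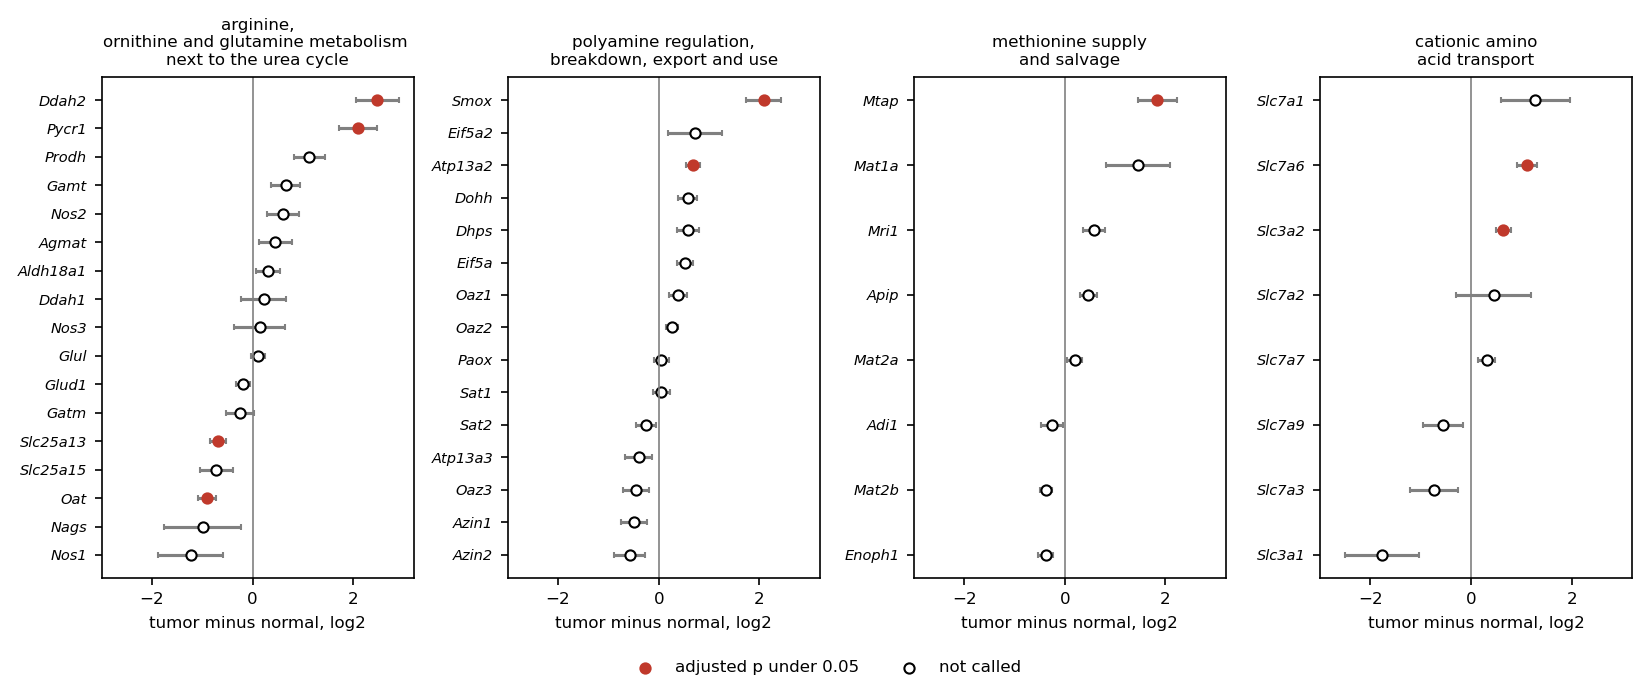
Tumor minus normal difference on the log2 scale (x axis) of the 48 neighbouring genes in 4 panels, 1 per list, with bars for the SE. Red points passed limma at an adjusted p of 0.05. The 9 that passed are 7 with higher and 2 (Oat and Slc25a13) with lower values in tumors.

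The scanner files add 4 arrays that match no column of the table, those filed under normal 1 and tumors 2, 3 and 4. On a log2 scale set to 0 at the 75th percentile of the array, Otc was at 1.80 to 2.35 in these 4 files and at -5.08 to -1.14 in the 4 files that match a column. Cps1 was at 3.30 to 4.06 in the files without a column and at -1.70 to 0.47 in those with one, and Arg2 at 0.55 to 2.45 and at -3.43 to -1.26. Ass1 ran the other way, at -0.59 to 0.01 in the files without a column and 0.67 to 0.88 in those with one. By their brightest probes, the ranges of the other 6 members, Asl, Arg1, Odc1, Amd1, Srm and Sms, met or overlapped between the 2 sets of files. The second Amd1 probe was lower in all files without a column, at -0.19 to 0.17 against 0.24 to 0.76. The second Sms probe was higher in all of them, at -1.41 to -1.16 against -1.97 to -1.45. The small intestine enterocyte list had a mean of 2.89 to 4.82 in the files without a column and of -2.92 to -0.91 in those with one, and the colonocyte list of 0.36 to 1.49 and 1.89 to 4.94. The part of these markers in the member values was not tested. When all 8 scanner files were grouped by their file labels, 6 of the 10 members had the opposite sign to the table, at 2.46 for Otc, 1.93 for Cps1, -0.60 for Ass1, -0.14 for Asl, -0.36 for Amd1 and -0.09 for Srm. Because tumors 2, 3 and 4 and only normal 1 lack a column, the split by file label largely coincides with the split by match.

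**Figure D4:**
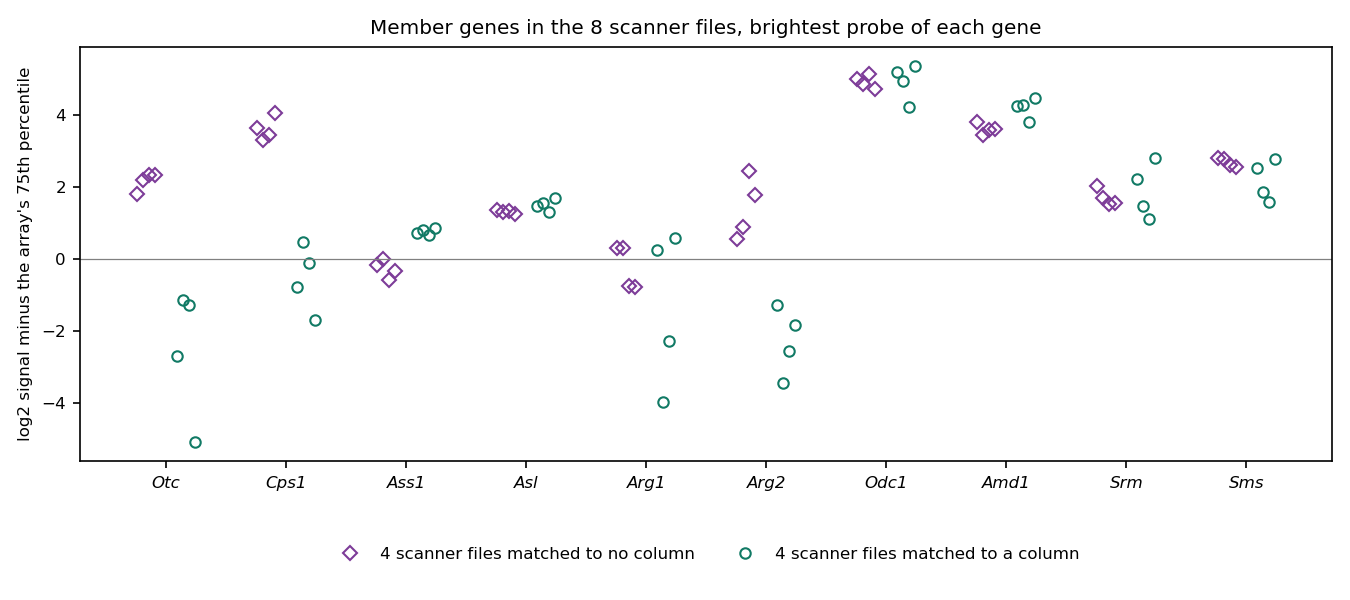
Log2 signal relative to the array's own 75th percentile (y axis) of the 10 genes by their brightest probe in the 4 scanner files that match no table column (diamonds, left) and the 4 that match one (circles, right). Otc, Cps1 and Arg2 lie higher, and Ass1 lower, in all 4 files without a column.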

How the data were processed

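RNA of 8 colon samples, 4 tumor and 4 normal, was measured on 1-colour Agilent arrays of design 014868. The authors deposited a table of values that were taken to be log2 and quantile-normalised. The median of the column medians was 8.51, and the 75th percentile of the tumor 1 column was 11.40. Whether every column has these values is not shown here. The scanner files hold intensity values of single arrays (Agilent Feature Extraction 9.5.1.1 and mm8 coordinates, per the file headers; the submitters' processing notes give version 10.1.1.1). Columns were matched to files by Spearman correlation and empty cells. The detection limit of 5.59 is taken from the 4 matched columns: in each, the 95th percentile over probes that the scanner software did not detect (4.50 to 7.70), and then their median.

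The R package limma (3.58.1, under R 4.3.3) fitted each probe, with moderated 2-sided tests and Benjamini-Hochberg adjustment over 31870 probes. The fit was also run on simulated independent values, which lack deviations shared between samples, so nothing is read from that run. The brightest kept probe stood for a gene, and genes were named through RefSeq of GRCm38.p6 (24375 probes by accession, 6301 by symbol, 2426 by synonym, and 8072 keep the file's name). Same-numbered tumors and normals deviated together (Pearson 0.23, 0.39, 0.56 and 0.38 for pairs 1 to 4), so a fit with the pair as a block was run, although tumor 1 correlated better with normal 3 (0.31) and tumor 4 slightly better with normal 2 (0.39). Nothing says that the pairs share a litter. With 4 arrays a group, their number limits the precision. The members, lists and the use of the table were chosen with earlier results of these data known. Text names every member, every list gene that passed and the 2 largest other differences of each list, and beside these Nags, Slc25a15 and Mat2b. Beside the 48 genes of the lists, 2 further pathway genes are not reported here. The markers Ly6g and Serpina1a, not found on the array, and Ngp and Fgb, which did not pass the detection filter, were not tested. For likeness, 3 genes with a symbol were taken per member.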

Additional observations from a re-analysis of the deposited data

Results flagged for a closer look

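In 1 of 32 groups of 4 samples (16 kept member probes, tumors and normals apart), 1 sample lay far from the others. The dimmest Sms probe read 3.06 in normal 1, against 6.42, 5.86 and 5.97 in the other normals. By chance alone a sample that far out appears in a share of about 0.05 of such groups.

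The 4 scanner files that match no column of the deposited table hold signal that the comparison of tumors with normals does not use. There Otc was higher by 4.72, Cps1 by 4.14 and Arg2 by 3.68 (log2, mean of the 4 files without a column minus mean of the 4 with one), and each of the 4 files exceeded each of the other 4.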

How the results depend on the processing

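All 10 member differences kept their sign in every fit to the deposited table. For the 8 genes whose groups did not overlap this was fixed in advance, so only the sizes are informative. They ranged from -3.36 to -2.53 for Otc, -1.39 to -0.69 for Cps1, 2.17 to 3.27 for Arg1, 1.09 to 1.40 for Srm and 0.89 to 0.97 for Sms. Calls were less stable: leaving out 1 sample gave 1 (without tumor 3) to 16474 (without normal 3) called probes against 4285, 0 to 7 member genes against 5, and 0 to 27 neighbouring genes against 9. The replicate block gave 3606 probes, the same 5 member genes and 7 neighbouring genes, and among the 17 neighbouring genes that the naming rule took it ended the calls of Slc25a13 and Slc3a2 and changed no other. Array weights gave 22209 probes, 8 member genes and 32 neighbouring genes. The 4 matched columns alone, a choice made after seeing the data, gave 0 probes, 0 member genes and 0 neighbouring genes in limma, with 7431 probes at an unadjusted p under 0.05 and fewer samples. Scanner files as filed gave 0 in each count too, in limma on the 75th percentile scale (600 probes at an unadjusted p under 0.05), after normexp and quantile normalisation (730) and with the slide as a block (434). In these 3 fits the signs of 6 of 10 members turned, to 2.46, 2.12 and 2.46 for Otc, 1.93, 1.88 and 1.93 for Cps1, -0.60, -0.55 and -0.60 for Ass1, -0.14, -0.09 and -0.14 for Asl, -0.36 in each for Amd1 and -0.09, -0.06 and -0.09 for Srm. Of the 17 neighbouring genes 3 turned in all of them, to 0.79, 0.75 and 0.79 for Oat, -0.24, -0.22 and -0.24 for Mri1 and 2.81, 2.67 and 2.81 for Slc3a1, and after normexp 2 more did, Slc7a6 at -0.01 and Mat1a just below 0. Of the files behind these 3 fits, 4 match no column, so the fits use partly other arrays. These 4 are tumors 2, 3 and 4 and normal 1, so file label and match largely coincide. Among the files that match a column, only tumor 1 carries the column's label. Which labels are right was not tested. Dropping the filter, requiring the limit in all columns, centring columns and 1 probe per gene each called the same 5 member genes. Requiring the limit in all columns brought Prodh past the threshold (limma adjusted p = 0.0374).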
